A study of Mus musculus with 12 samples.

Results

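The genes described here are 10 markers of primitive endoderm, Gata4, Gata6, Sox7, Sox17, Foxa2, Dab2, Lama1, Lamb1, Cubn and Amn. They were chosen by name, and all 10 were found by symbol among the 43346 gene IDs of the deposited count table. RNA was sequenced from mouse embryonic stem cells in 12 libraries, 3 from each of 4 groups. B6 is C57BL/6J and D2 is DBA/2J, both inbred strains. B6-13D2 is the congenic strain B6.D2-(rs30079041-rs51756099)/Bakr, which holds a D2 piece of chromosome 13 in a B6 genome. D2-13B6 is the reciprocal strain D2.B6-(rs29224292-rs13469455)/Bakr, with a B6 piece in a D2 genome; the design text gives its segment another end. Every group grew in medium with 15% serum, LIF, 1 μM PD0325901 (a MEK inhibitor) and 3 μM CHIR99021 (a GSK3 inhibitor). The protocol describes 3 independent cultures of 1 line per strain, so strain and line cannot be told apart. By the protocol, p-values measure the spread between cultures. The titles call the replicates technical, give B6 replicate 3 another line name than B6 replicates 1 and 2, and name a D2 line that differs from the D2 cell line field. By the titles, that spread may be technical, and in B6 it may hold a difference between lines. None of the 10 genes lies on chromosome 13.

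Primitive endoderm is the extraembryonic layer that forms beside the epiblast in the blastocyst and later gives rise to the visceral and parietal endoderm of the yolk sac. FGF4 from epiblast cells acts through FGF receptors and MEK to favour it, and GATA6 opposes the pluripotency factor NANOG. GATA4, SOX17, SOX7 and FOXA2 are transcription factors of the layer. DAB2 is an endocytic adaptor, cubilin (Cubn) and amnionless (Amn) form an endocytic receptor that works with megalin (Lrp2), and the laminin chains of Lama1 and Lamb1 are part of the basement membrane that these cells lay down. Several of these genes, Dab2 and Lamb1 among them, are also known from fibroblasts and other cell types, and Sox7 and Sox17 are also known from endothelium.

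The libraries held 22184196 to 36411799 expected counts. Levels below are in CPM, the counts of a gene as a share of all counts in its library scaled by TMM. The labelled cell type was checked against 5 embryonic stem cell markers (Pou5f1, Nanog, Sox2, Esrrb and Zfp42), whose summed level was 1887 to 2866 CPM across all libraries. A list of 18 fibroblast genes was high in the same libraries. Its summed level was 13239 to 14242 CPM in B6, 4311 to 4401 in B6-13D2, 19959 to 23536 in D2 and 10908 to 11357 in D2-13B6. None of its 8 defining markers was at 0 in any library. Col1a1, the main chain of type I collagen, had a mean of 6428 CPM ± 348 (SD, n = 3) in B6, 2093 ± 37.5 in B6-13D2, 10484 ± 925 in D2 and 5227 ± 99.3 in D2-13B6. The groups thus stood in the order D2, B6, D2-13B6, B6-13D2 by this list, and no group's range overlapped another's. In bulk RNA, fewer cells of a type and less RNA per cell cannot be told apart.

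**Figure D1:**
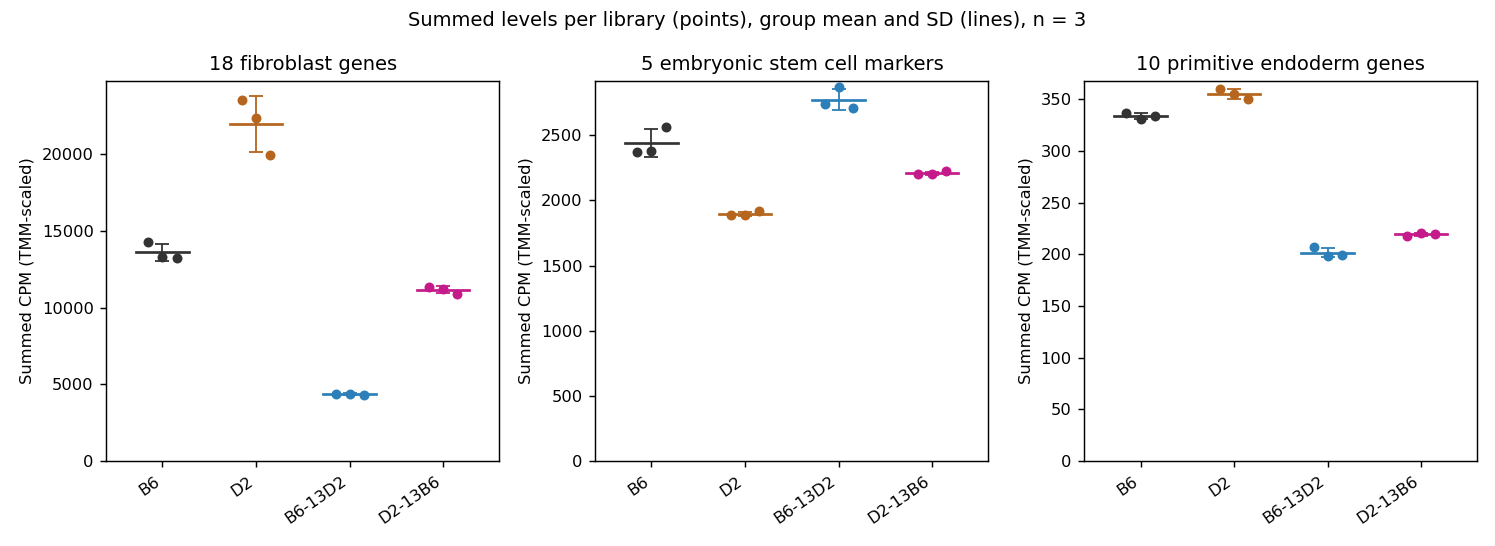
Summed CPM of 18 fibroblast genes, of 5 embryonic stem cell markers and of the 10 primitive endoderm genes (vertical axes, CPM) in the 4 groups, with a point for each library and lines for the group mean and SD (n = 3). The fibroblast sum runs from 4311 CPM in B6-13D2 to 23536 CPM in D2, and the stem cell sum from 1887 CPM in D2 to 2866 CPM in B6-13D2.

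Promoter sequence was available for 5 of the 10 genes in the RefSeq table (GRCm38.p6): Dab2, Cubn, Lamb1, Amn and Foxa2, whose 3 windows are not printed because Foxa2 was too low to test. The windows below belong to Dab2, Cubn and Lamb1, which in no comparison passed the test against the direction of the fibroblast list, and to Amn, which did in D2-13B6 against D2. Each holds the 250 bases before a start, 5′ to 3′ on the gene's strand. Dab2 has 2 starts, with windows at chr15:6299539-6299788 and chr15:6386498-6386747, both on the plus strand. Cubn lies at chr2:13491877-13492126 on the minus strand, Lamb1 at chr12:31265043-31265292 and Amn at chr12:111270846-111271095, both on the plus strand. The Cubn start of this table lies upstream of the gene as GENCODE M21 places it, which ends at 13491813, and the bases after that start were found in no GENCODE transcript of Cubn, while for the other windows they were. Capitals mark a match to the GATA motif, searched on both strands as AGATAA or AGATAG and as TGATAA or TGATAG.
Dab2, first start: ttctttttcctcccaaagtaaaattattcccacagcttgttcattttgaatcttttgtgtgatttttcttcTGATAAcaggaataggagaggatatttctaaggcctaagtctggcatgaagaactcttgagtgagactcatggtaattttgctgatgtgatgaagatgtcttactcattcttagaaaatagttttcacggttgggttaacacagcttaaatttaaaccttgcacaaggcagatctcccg
Dab2, second start: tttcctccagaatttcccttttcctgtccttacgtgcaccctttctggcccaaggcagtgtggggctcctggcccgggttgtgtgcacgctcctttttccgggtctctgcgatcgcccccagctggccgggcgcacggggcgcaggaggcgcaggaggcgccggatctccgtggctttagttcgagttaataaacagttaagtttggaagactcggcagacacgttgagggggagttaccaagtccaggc
Cubn: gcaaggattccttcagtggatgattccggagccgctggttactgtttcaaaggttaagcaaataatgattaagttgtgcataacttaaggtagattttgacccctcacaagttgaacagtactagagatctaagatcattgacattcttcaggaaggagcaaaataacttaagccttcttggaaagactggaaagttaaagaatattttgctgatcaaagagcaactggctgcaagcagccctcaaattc
Lamb1: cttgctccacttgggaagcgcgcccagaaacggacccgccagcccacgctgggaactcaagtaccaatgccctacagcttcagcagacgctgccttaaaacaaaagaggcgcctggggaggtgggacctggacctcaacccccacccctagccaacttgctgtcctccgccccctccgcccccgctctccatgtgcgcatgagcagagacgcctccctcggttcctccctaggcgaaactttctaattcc
Amn: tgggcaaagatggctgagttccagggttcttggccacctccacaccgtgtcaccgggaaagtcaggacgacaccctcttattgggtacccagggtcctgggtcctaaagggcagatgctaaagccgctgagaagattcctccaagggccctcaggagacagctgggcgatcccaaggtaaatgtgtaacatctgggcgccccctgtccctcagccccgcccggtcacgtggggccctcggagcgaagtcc
Of the windows shown, the first Dab2 window held a match, TGATAA at 179 bases before the start, and the others held none. Of the 3 Foxa2 windows, 1 held AGATAA at 183 bases before its start. Among all 32851 promoter windows of this length, 26.5% held at least 1 match, so a match is common. The motif TGTTTAC or TATTTAC, which forkhead factors such as FOXA2 bind, was in none of these 5 windows and in 5.76% of all windows. A window without a match says nothing of the factor. The GC content was 36.8% at the first Dab2 start and 60.0% at the second, 39.6% at Cubn, 62.0% at Lamb1 and 61.2% at Amn.

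The 10 genes covered a wide range of levels. Per kilobase of exon, the mean in B6 was 25.2 CPM for Lamb1, 5.49 for Lama1, 2.96 for Dab2, 0.843 for Gata4, 0.513 for Amn, 0.273 for Gata6, 0.200 for Sox7, 0.150 for Cubn, 0.0783 for Sox17 and 0.0302 for Foxa2. The laminin chains and Dab2 were therefore the abundant genes of this set per length, and all 5 transcription factors were below 1 CPM per kilobase in B6. Of the 10 genes, 9 passed the filter on low counts and were tested. Foxa2 was under the limit of 0.368 CPM in each of the 12 libraries, while Sox7 reached it in 8 and Sox17 in 10, and the other 7 genes in all 12.

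**Figure D2:**
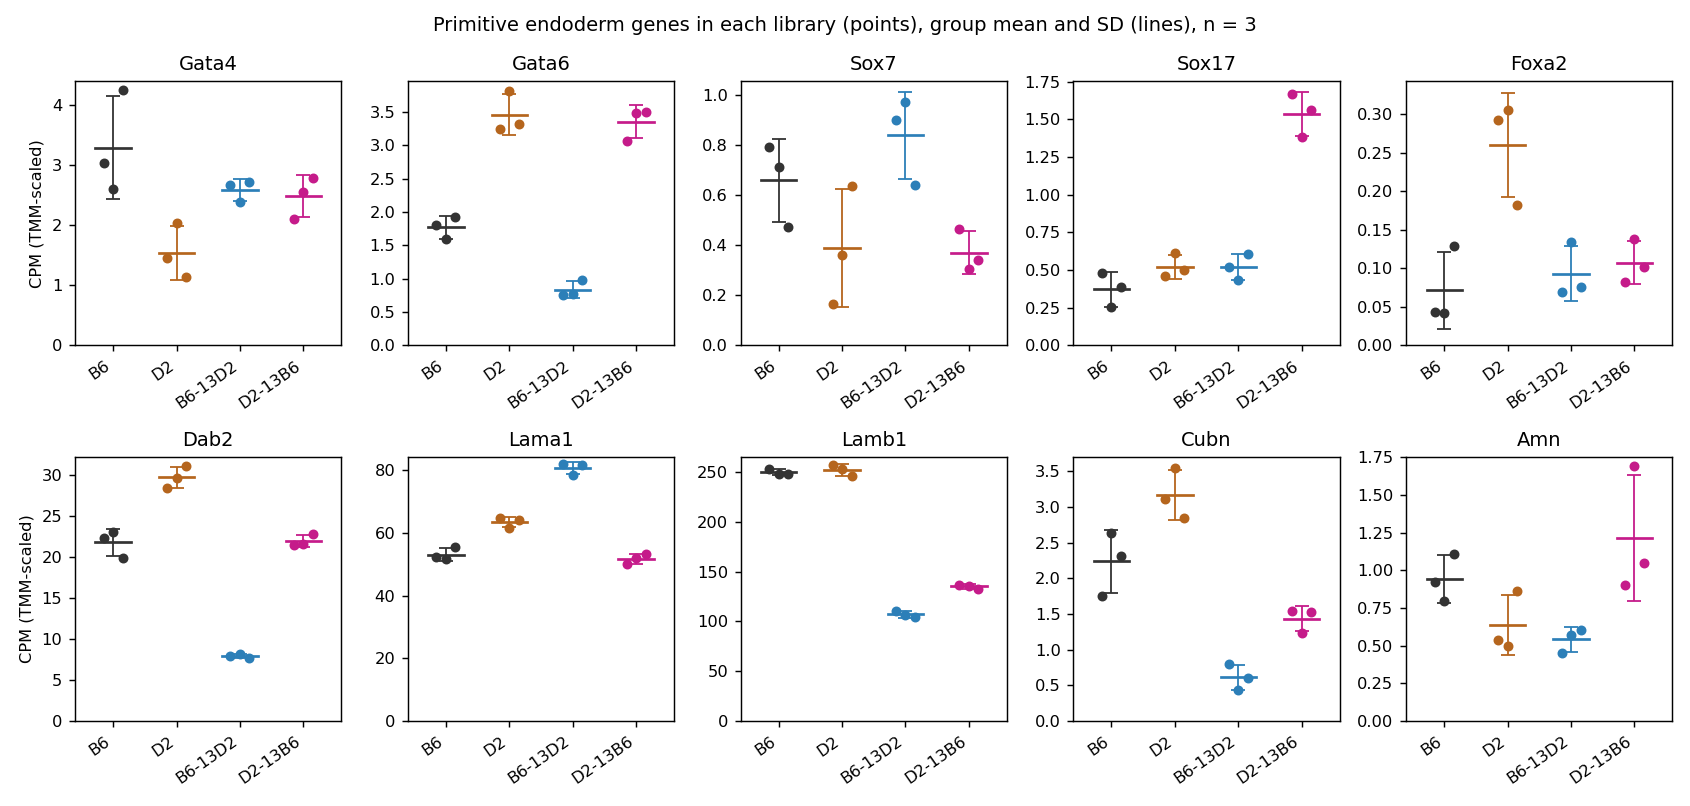
CPM (vertical axes, from 0) of the 10 primitive endoderm genes in the 4 groups, with a point for each library and lines for the group mean and SD (n = 3). Sox17 is high in D2-13B6, at 1.38 to 1.67 CPM; Dab2, Cubn and Gata6 are lowest in B6-13D2; Lama1 is highest there, at 78.7 to 82.1 CPM.

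Gata4 (chromosome 14, 63198922 to 63271692, GRCm38) and Gata6 (chromosome 18, 11052064 to 11085635), the GATA factors of the layer, differed in opposite directions between the parental lines. Gata4 had 3.03, 2.60 and 4.24 CPM in the B6 libraries, 1.46, 2.03 and 1.14 in D2, 2.67, 2.38 and 2.72 in B6-13D2 and 2.11, 2.55 and 2.79 in D2-13B6. The D2 libraries were all below those of the other groups, and the other 3 groups overlapped each other. Gata4 was 2.07-fold lower in D2 than in B6, a log2 difference of -1.05 (SE 0.220, edgeR adjusted p 0.000514). It was higher in D2-13B6 than in D2 by 0.64 on the log2 scale (SE 0.219, edgeR adjusted p 0.0191). That call was lost without D2 replicate 1 (edgeR adjusted p 0.0538) or replicate 3 (0.0865), or without D2-13B6 replicate 2 (0.0515) or replicate 3 (0.0711). In B6-13D2 against B6 the difference was -0.35 (95% interval -0.78 to 0.09) and did not pass the test.

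Gata6 had 1.80, 1.59 and 1.93 CPM in B6, 0.762, 0.772 and 0.981 in B6-13D2, 3.25, 3.81 and 3.32 in D2 and 3.07, 3.49 and 3.50 in D2-13B6. The D2 and D2-13B6 libraries overlapped and lay above all B6 libraries, which lay above all B6-13D2 libraries. Gata6 was 1.96-fold higher in D2 than in B6 (log2 difference 0.97, SE 0.160, edgeR adjusted p 4.77e-05) and 2.12-fold lower in B6-13D2 than in B6 (-1.08, SE 0.194, edgeR adjusted p 0.000108). Between D2-13B6 and D2 the difference was -0.06 (95% interval -0.35 to 0.24). An antisense gene that shares exon sequence with Gata6 had at most 1 count in a library.

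Sox17 (chromosome 1, 4490931 to 4497354) had the highest fold change of the 9 tested genes in D2-13B6 against either parental line. It had 0.483, 0.252 and 0.386 CPM in B6, 0.519, 0.436 and 0.604 in B6-13D2, 0.458, 0.612 and 0.501 in D2, and 1.67, 1.38 and 1.56 in D2-13B6. Every D2-13B6 library was above every other library, and the remaining groups overlapped. The log2 difference was 1.53 against D2 (SE 0.270, edgeR adjusted p 0.000104) and 2.04 against B6 (SE 0.294, edgeR adjusted p 1.12e-05), which are 2.88-fold and 4.10-fold. These rest on 46 to 61 counts in each D2-13B6 library and 6 to 22 in each other library. In D2 against B6 the change was 0.51 (95% interval -0.21 to 1.22) and in B6-13D2 against B6 0.47 (-0.24 to 1.18); neither passed the test.

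Sox7 (chromosome 14, 63943673 to 63950732), a close relative of Sox17, had another order of groups. It had 0.791, 0.713 and 0.472 CPM in B6, 0.900, 0.973 and 0.642 in B6-13D2, 0.167, 0.362 and 0.637 in D2 and 0.466, 0.304 and 0.340 in D2-13B6. The B6 and D2 libraries overlapped, and all B6-13D2 libraries were above all D2 and D2-13B6 libraries. Sox7 was 2.25-fold lower in D2-13B6 than in B6-13D2 (log2 difference -1.17, SE 0.376, edgeR adjusted p 0.0103) and 2.19-fold higher in B6-13D2 than in D2 (1.13, SE 0.390, edgeR adjusted p 0.0144). The latter call was lost without D2 replicate 1 (0.069), D2 replicate 2 (0.0526) or B6-13D2 replicate 2 (0.0542). In D2 against B6 the change was -0.78 (95% interval -1.65 to 0.09, edgeR adjusted p 0.113), and without D2 replicate 3 it was -1.23 (edgeR adjusted p 0.0279). These values rest on 4 to 29 counts in a library.

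Foxa2 (chromosome 2, 148042877 to 148046969) had 1, 1 and 3 counts in the B6 libraries, 7, 11 and 4 in D2, 2, 4 and 2 in B6-13D2 and 3, 5 and 3 in D2-13B6. In CPM, which allows for depth, the D2 libraries (0.182 to 0.306) were above all others (0.042 to 0.138), though the counts themselves overlapped. In a fit with no filter, Foxa2 passed the test in none of the comparisons, with the smallest edgeR adjusted p of 0.0845 (unadjusted p 0.0341) in D2 against B6.

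Dab2 (chromosome 15, 6299788 to 6440712) was high in D2 and low in B6-13D2, as Col1a1 was. It had 22.3, 23.0 and 19.9 CPM in B6, 7.89, 8.12 and 7.74 in B6-13D2, 28.4, 29.6 and 31.0 in D2 and 21.4, 21.6 and 22.8 in D2-13B6. D2 was above and B6-13D2 below every other library, and B6 and D2-13B6 overlapped. Dab2 was 2.74-fold lower in B6-13D2 than in B6 (log2 difference -1.46, SE 0.0698, edgeR adjusted p 5.08e-12). It was 1.37-fold higher in D2 than in B6 (0.45, SE 0.0595, edgeR adjusted p 4.14e-06) and 1.36-fold lower in D2-13B6 than in D2 (-0.44, SE 0.0571, edgeR adjusted p 3.44e-06). Between D2-13B6 and B6 the difference was 0.01 (95% interval -0.12 to 0.14).

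The receptor genes Cubn (chromosome 2, 13276338 to 13491813) and Amn (chromosome 12, 111271095 to 111276426), whose products act as a complex, were called in the same direction in some comparisons and in opposite directions in D2-13B6 against D2. Cubn had 1.76, 2.64 and 2.32 CPM in B6, 0.796, 0.436 and 0.604 in B6-13D2, 3.12, 3.55 and 2.85 in D2 and 1.54, 1.24 and 1.53 in D2-13B6, and no group overlapped another. The order of the groups, D2, B6, D2-13B6 and B6-13D2, was that of Col1a1. Cubn was 3.65-fold lower in B6-13D2 than in B6 (log2 difference -1.87, SE 0.245, edgeR adjusted p 3.47e-06) and 2.23-fold lower in D2-13B6 than in D2 (-1.16, SE 0.200, edgeR adjusted p 8.38e-05). Cubn was also higher in D2 than in B6 by 0.51 (SE 0.199, edgeR adjusted p 0.0335). That call was lost without B6 replicate 1 (0.144) or replicate 3 (0.055), or without D2 replicate 1 (0.0515) or replicate 2 (0.137). It was also lost with replicate number as a block (0.0511). Within a tolerance of 1e-06, the counts of Cubn were whole in 7 of 12 libraries, and those of the other 9 genes were whole in all 12. Gm13270, which shares exon sequence with Cubn on the opposite strand, had 0 to 7.43 counts in a library, where Cubn had 13.0 to 127.8. The strand setting of the counting is not given in the sources used here, so reads of the pair may not be told apart.

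Amn had 0.922, 0.797 and 1.11 CPM in B6, 0.450, 0.570 and 0.604 in B6-13D2, 0.541, 0.501 and 0.865 in D2 and 0.905, 1.69 and 1.05 in D2-13B6. The D2-13B6 libraries were above all D2 and B6-13D2 libraries but overlapped those of B6. Amn was 1.96-fold higher in D2-13B6 than in D2 (log2 difference 0.97, SE 0.309, edgeR adjusted p 0.0125), in the opposite direction to Cubn. In D2-13B6 against B6-13D2 both were higher, Cubn 2.34-fold (1.23, SE 0.249, edgeR adjusted p 0.000274) and Amn 2.25-fold (1.17, SE 0.312, edgeR adjusted p 0.00286). Without D2 replicate 2 the call of Amn in D2-13B6 against D2 was lost (0.0709), as it was without D2-13B6 replicate 2 (0.109), the library with the highest value. Amn was lower in B6-13D2 than in B6 (-0.80, SE 0.334, edgeR adjusted p 0.0485). The latter call was lost with DESeq2 (0.106), RLE size factors (0.0658), no filter (0.0648) or replicate number as a block (0.0525). It was also lost without any of B6 replicates 1 and 3, D2 replicate 1, B6-13D2 replicates 1, 2 and 3 or D2-13B6 replicate 3 (0.0551 to 0.153).

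Megalin (Lrp2), the partner of this receptor, had 17.2 CPM ± 0.377 (SD, n = 3) in B6, 8.20 ± 0.241 in B6-13D2, 15.5 ± 0.826 in D2 and 50.3 ± 2.40 in D2-13B6. It was 3.24-fold higher in D2-13B6 than in D2 (log2 difference 1.70, SE 0.0543, edgeR adjusted p 8.83e-14), a comparison in which Sox17 and Amn were also higher and Cubn and Dab2 lower.

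The laminin chains moved in opposite directions in B6-13D2. Lama1 (chromosome 17, 67697259 to 67822647), the alpha chain, had 52.3, 51.7 and 55.5 CPM in B6, 82.1, 78.7 and 81.8 in B6-13D2, 64.8, 61.7 and 64.3 in D2 and 50.1, 52.2 and 53.3 in D2-13B6. The B6-13D2 libraries were above all others and D2 came next, while B6 and D2-13B6 overlapped. Lama1 was 1.52-fold higher in B6-13D2 than in B6 (log2 difference 0.61, SE 0.0414, edgeR adjusted p 7.01e-10) and 1.19-fold higher in D2 than in B6 (0.26, SE 0.0422, edgeR adjusted p 4.70e-05). It was 1.23-fold lower in D2-13B6 than in D2 (-0.29, SE 0.0410, edgeR adjusted p 8.12e-06).

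Lamb1 (chromosome 12, 31265234 to 31329644), the beta chain, had 253.1, 247.6 and 248.2 CPM in B6, 110.5, 106.4 and 104.0 in B6-13D2, 257.1, 252.5 and 245.9 in D2 and 136.8, 135.8 and 132.5 in D2-13B6. Both congenic lines were below both parental lines, whose libraries overlapped. Lamb1 was 2.33-fold lower in B6-13D2 than in B6 (log2 difference -1.22, SE 0.0342, edgeR adjusted p 3.09e-15) and 1.86-fold lower in D2-13B6 than in D2 (-0.90, SE 0.0334, edgeR adjusted p 4.19e-13). In D2 against B6 the change was 0.01 (95% interval -0.06 to 0.08). The gamma chain gene Lamc1, which completes the trimer, differed by 0.07 in B6-13D2 against B6 without passing the test (SE 0.0322, edgeR adjusted p 0.0706) and was lower in D2 than in B6 (-0.64, SE 0.0325, edgeR adjusted p 2.26e-11).

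**Figure D3:**
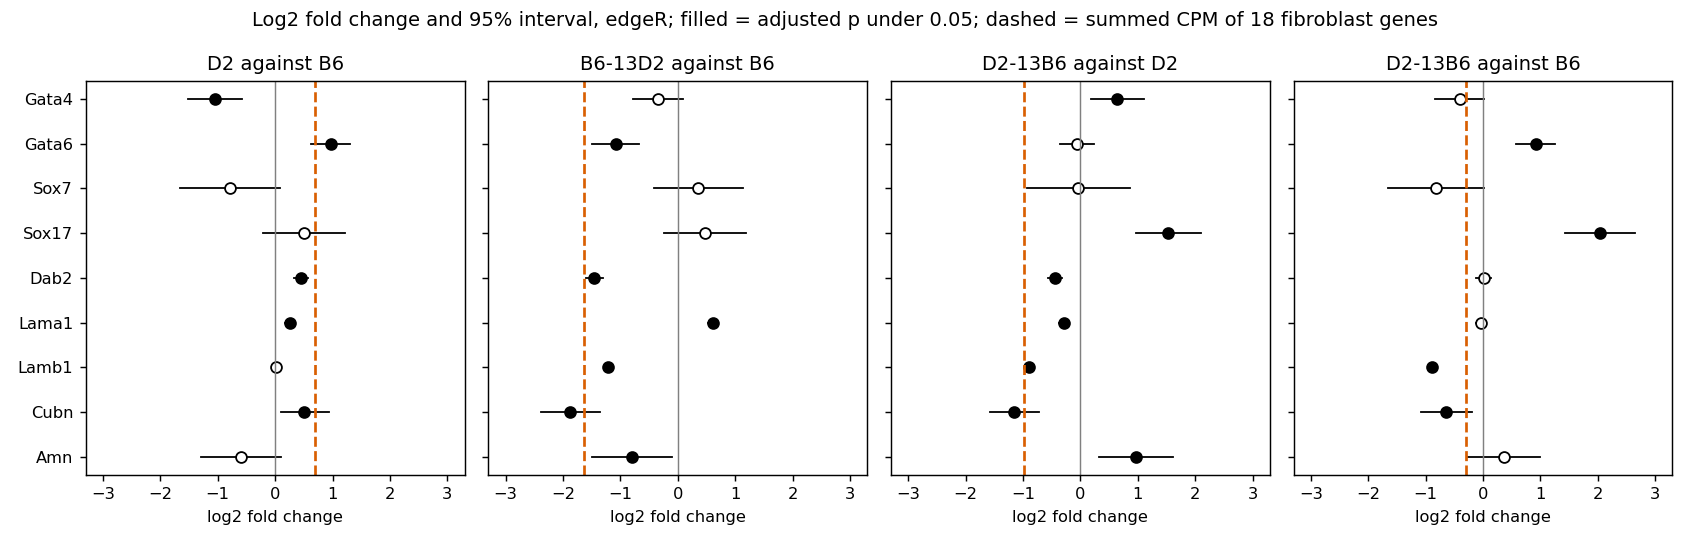
Log2 fold change (horizontal axes) of the 9 tested genes in 4 comparisons, with 95% intervals; filled points passed an edgeR adjusted p of 0.05 and the dashed line marks the change of the summed fibroblast list. Gata4 and the dashed line lie on opposite sides of 0 in D2 against B6 (-1.05 and 0.69), as do Lama1 and the line in B6-13D2 against B6 (0.61 and -1.64).

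By comparison, D2 against B6 gave 5 called genes among the 9 tested (Gata6, Dab2, Lama1 and Cubn higher, Gata4 lower), where 60.0% of all 17148 tested genes were called, 29.8% higher and 30.3% lower. B6-13D2 against B6 gave 6 (Lama1 higher; Gata6, Dab2, Lamb1, Cubn and Amn lower), with 58.3% called over all genes (25.4% higher, 32.9% lower). D2-13B6 against D2 gave 7 (Gata4, Sox17 and Amn higher; Dab2, Lama1, Lamb1 and Cubn lower), with 57.3% called over all genes (27.6% higher, 29.7% lower). D2-13B6 against B6 gave 4 (Gata6 and Sox17 higher, Lamb1 and Cubn lower), with 59.0% over all genes (24.5% higher, 34.6% lower). B6-13D2 against D2 gave 7 (3 higher, 4 lower), with 74.6% over all genes (36.7% higher, 38.0% lower). D2-13B6 against B6-13D2 gave 8 (6 higher, 2 lower), with 70.2% over all genes (38.4% higher, 31.8% lower). The sum of both congenic-minus-parental differences gave 6 (2 higher, 4 lower), with 64.5% over all genes (31.1% higher, 33.4% lower). With 9 genes, these counts are read against a background of 57.3% or more of all genes and are no result about the members by themselves. Where the size of the log2 difference had to reach 1 as well, Gata4 remained in D2 against B6 (11.3% of all genes), Gata6, Dab2, Lamb1 and Cubn in B6-13D2 against B6 (14.5%), Sox17 and Cubn in D2-13B6 against D2 (8.96%) and Sox17 in D2-13B6 against B6 (11.6%). The comparisons share libraries, so their calls are not independent.

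Which members changed apart from the fibroblast genes was asked first by direction. All 18 fibroblast genes were higher in D2 than in B6 (median log2 fold change 0.72, against 0.01 over all tested genes), with the summed list 1.62-fold higher. All 18 were lower in B6-13D2 than in B6 (median -1.56, against -0.04 over all genes), with the sum 3.11-fold lower. In D2-13B6 against D2, 17 were lower and Dcn was not called (0.07), with a median of -0.92 and the sum 1.97-fold lower. In D2-13B6 against B6 the sum was 1.22-fold lower, with 10 genes lower, 4 higher and 4 not called. Of all tested genes, 29.8% were higher in D2 than in B6, and 32.9% were lower in B6-13D2 than in B6. In D2-13B6, 29.7% were lower than in D2, and 34.6% were lower and 24.5% higher than in B6. The list was chosen with earlier results of these data known, so its shared direction is no independent result.

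Members that passed the test against the direction of this list were Gata4 in D2 against B6, Lama1 in B6-13D2 against B6, Gata4, Sox17 and Amn in D2-13B6 against D2, and Gata6 and Sox17 in D2-13B6 against B6. Gata4, Sox7 and Lama1 did so in B6-13D2 against D2, and Sox7 and Lama1 in D2-13B6 against B6-13D2. Dab2, Cubn and Lamb1 never did in these 6 comparisons. By comparison these are 1, 1, 3, 2, 3 and 2 of the 9 tested genes in the order given, where 30.3%, 25.4%, 27.6%, 24.5%, 36.7% and 31.8% of all tested genes were called in the direction opposite to the summed list, so the counts by themselves are no result about the members. D2-13B6 against B6 is the comparison in which the fibroblast sum differed least, and the list had no single direction there: of its 8 defining markers 4 were higher and 4 lower, with a median of -0.04. The case of Gata6 rests on the direction of the sum. In that comparison Gata6 was 1.89-fold higher (log2 difference 0.92, SE 0.158, edgeR adjusted p 7.52e-05) and Sox17 4.10-fold higher. Lamb1 was 1.85-fold lower (-0.89, SE 0.0335, edgeR adjusted p 3.01e-13) and Cubn 1.56-fold lower (-0.64, SE 0.211, edgeR adjusted p 0.0143), the latter not without B6 replicate 2 (0.0775) or D2-13B6 replicate 2 (0.0597).

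A further test, chosen after the data were seen, scaled every library to the summed counts of the 18 fibroblast genes. A gene that rose and fell in proportion to the list then shows no change. The share of all tested genes called on this scale was 76.4% in D2 against B6 (3.71% higher, 72.7% lower), 89.7% in B6-13D2 against B6 (88.7% higher, 0.997% lower), 86.1% in D2-13B6 against D2 (84.4% higher, 1.65% lower) and 54.7% in D2-13B6 against B6 (44.0% higher, 10.7% lower). The members called were 6 (all lower), 7 (all higher), 6 (all higher) and 5 (4 higher, 1 lower) in the same order. The median relative log2 change of all tested genes was -0.68, 1.60, 0.97 and 0.22, and relative changes of the members are read against these. Scaling to Col1a1 alone gave the same numbers of calls, and scaling to the geometric mean of the list gave 6, 5, 6 and 4. The latter lost Gata6 (edgeR adjusted p 0.0523) and Amn (0.057) in B6-13D2 against B6 and Dab2 (0.451) and Lama1 (0.842) in D2-13B6 against B6, and gained Cubn there. The relative call of Amn in B6-13D2 against B6 (0.83, edgeR adjusted p 0.0348) also depended on single libraries. It was lost without B6 replicate 1 (0.0741) or replicate 2 (0.0869), or without B6-13D2 replicate 2 (0.0819) or replicate 3 (0.0977). Relative to the list the 5 embryonic stem cell markers were all lower in D2 than in B6 (median log2 change -1.06) and all higher in B6-13D2 than in B6 (1.87).

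Cubn was not called relative to the summed list in these 4 comparisons, with relative log2 changes of -0.18 (95% interval -0.63 to 0.26), -0.24 (-0.79 to 0.31), -0.18 (-0.63 to 0.27) and -0.36 (-0.83 to 0.10). With the geometric mean as the scale, Cubn was called in D2-13B6 against B6 (-0.59, edgeR adjusted p 0.0271). With few counts its intervals are wide, so proportionality is not shown. Dab2 had narrower intervals and was called in 3 of the 4, and in the fourth, B6-13D2 against B6, it was called without B6 replicate 2 (0.24, edgeR adjusted p 0.0398), without D2 replicate 3 (0.18, 0.0415) or when Col1a1 and Col1a2 were left out of the list (0.20, 0.0399). Its relative changes were -0.24 (-0.42 to -0.06) in D2 against B6, 0.18 (-0.02 to 0.38) in B6-13D2 against B6, 0.53 (0.36 to 0.71) in D2-13B6 against D2 and 0.30 (0.12 to 0.48) in D2-13B6 against B6. The last was not called when the geometric mean of the list set the scale (0.07, edgeR adjusted p 0.451). Counts of Dab2 for every 1000 counts of Col1a1 were 3.21 to 3.68 in B6, 3.70 to 3.90 in B6-13D2, 2.51 to 3.27 in D2 and 4.04 to 4.45 in D2-13B6. The relative change of Dab2 in D2 against B6 was not called without B6 replicate 2 (0.103), D2 replicate 1 (0.0916) or D2 replicate 2 (0.0575).

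Of the 9 tested genes, 3, 4, 3 and 2 were called with a relative change of at least 1 on the log2 scale in the 4 comparisons, where 24.8%, 80.6%, 47.1% and 14.0% of all tested genes were, so these counts are no result about the members by themselves. The scaling moves every gene of a comparison alike, so a call at or near the median of all genes says nothing particular of a member; no member was tested against that median. In D2 against B6, where the median was -0.68, Gata4, Sox7 and Amn lay below it, Lamb1 lay at it (-0.68) and the other 5 lay above. In B6-13D2 against B6 (median 1.60), Lama1, Sox17 and Sox7 lay above it and the other 6 below. In D2-13B6 against D2 (median 0.97), Sox17, Amn and Gata4 lay above it and the other 6 below. In D2-13B6 against B6 (median 0.22), Sox17, Gata6, Amn, Dab2 and Lama1 lay above it and the other 4 below. Relative to the list, Sox17 was 4.29-fold higher in B6-13D2 than in B6 (log2 2.10, SE 0.352, edgeR adjusted p 1.09e-05) and 5.65-fold higher in D2-13B6 than in D2 (2.50, SE 0.283, edgeR adjusted p 5.31e-08). Lama1 was 4.73-fold higher in B6-13D2 than in B6 (2.24, SE 0.0752, edgeR adjusted p 2.79e-16). Gata4 was 3.36-fold lower in D2 than in B6 (-1.75, SE 0.221, edgeR adjusted p 3.53e-07), 2.44-fold higher in B6-13D2 than in B6 (1.29, SE 0.208, edgeR adjusted p 7.10e-06) and 3.08-fold higher in D2-13B6 than in D2 (1.62, SE 0.219, edgeR adjusted p 6.93e-07). Its value of 1.29 in B6-13D2 against B6 lay below the median of all genes, 1.60. Lamb1 showed no call in D2-13B6 against D2 (0.07, 95% interval -0.05 to 0.20) but was 1.52-fold lower in D2-13B6 than in B6 (-0.60, SE 0.0614, edgeR adjusted p 6.50e-08). Without D2 replicate 3, Lamb1 was called in D2-13B6 against D2 (0.12, edgeR adjusted p 0.0239). Gata6 was not called relative to the list in D2 against B6 (0.28, 95% interval -0.09 to 0.65), while in D2-13B6 it was 2.30-fold higher than in B6 (edgeR adjusted p 7.47e-06). Its relative value of 0.92 in D2-13B6 against D2 was close to the median of all genes, and under TMM the difference was -0.06 and not called. Its relative call in B6-13D2 against B6 (0.55, edgeR adjusted p 0.0222), below the median of all genes, was lost without B6 replicate 2 (0.0599) or B6-13D2 replicate 3 (0.118), with no filter (0.0509) and with the compared libraries alone (0.0543), beside the geometric mean. Sox7 was 3.96-fold higher relative to the list in B6-13D2 than in B6 (1.98, SE 0.382, edgeR adjusted p 5.92e-05) and 2.73-fold lower in D2 than in B6 (-1.45, SE 0.426, edgeR adjusted p 0.00431). Amn was 3.81-fold higher in D2-13B6 than in D2 (1.93, SE 0.325, edgeR adjusted p 1.35e-05) and 2.43-fold lower in D2 than in B6 (-1.28, SE 0.348, edgeR adjusted p 0.0023). Under TMM, Gata4 (-0.35), Sox17 (0.47) and Sox7 (0.35) were not called in B6-13D2 against B6. Nor were Sox7 (-0.78) and Amn (-0.60) called under TMM in D2 against B6.

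**Figure D4:**
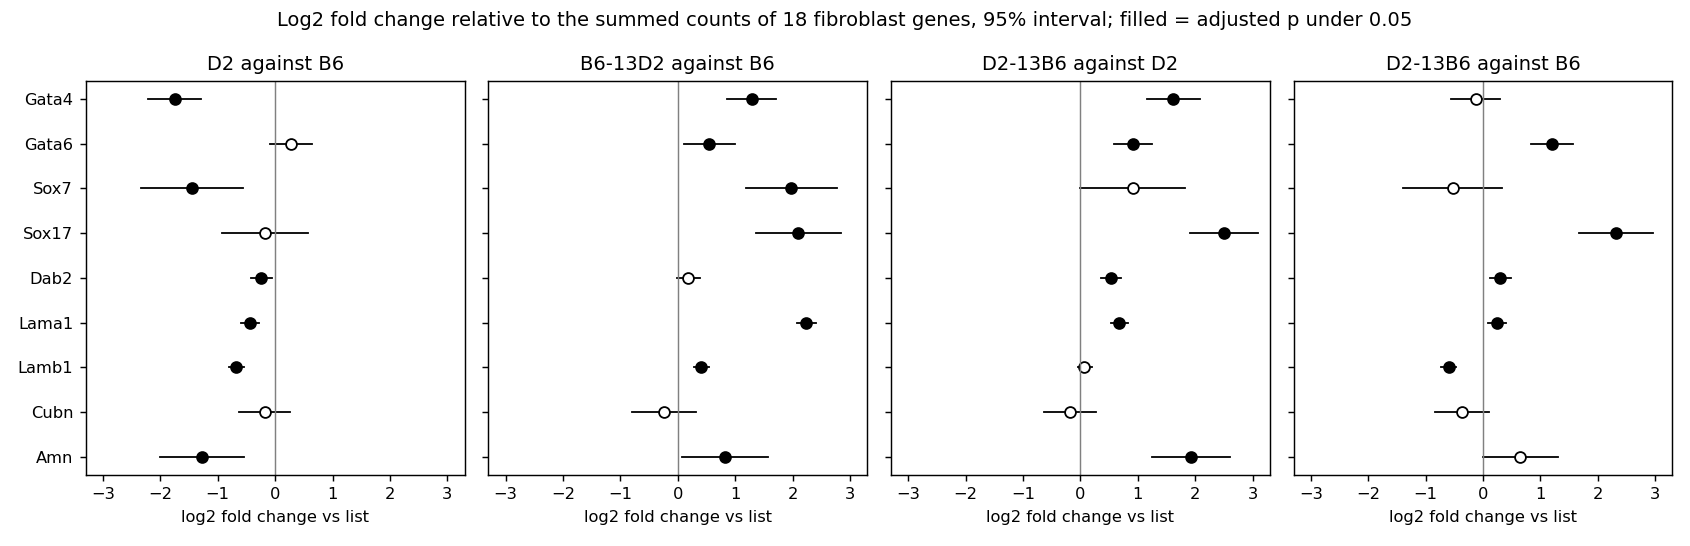
Log2 fold change (horizontal axes) of the 9 tested genes relative to the summed counts of 18 fibroblast genes, with 95% intervals; filled points passed an edgeR adjusted p of 0.05. Cubn is open in all 4 comparisons, while Lama1 reaches 2.24 in B6-13D2 against B6 and Sox17 reaches 2.50 in D2-13B6 against D2.

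Other genes of the layer and its derivatives were read from lists. Of 13 basement membrane genes, all tested, 10 were higher and 2 lower in D2 than in B6, 1 higher and 10 lower in B6-13D2 than in B6, and 2 higher and 10 lower in D2-13B6 than in D2. Over all tested genes the shares were 29.8% higher and 30.3% lower, 25.4% and 32.9%, and 27.6% and 29.7% in these comparisons. The median log2 fold changes were 0.37, -0.50 and -0.38. The type IV collagen genes Col4a1 and Col4a2, the network-forming collagens of basement membranes, were among the extremes in the first pair, at 0.71 and 0.68 in D2 and -1.54 and -1.59 in B6-13D2, both in the direction of Col1a1. Of 8 parietal endoderm genes, 5 were higher and 1 lower in D2 than in B6, 7 were lower in B6-13D2 than in B6 and 7 were lower in D2-13B6 than in D2, beside the same shares over all genes. In that list Plat, a plasminogen activator, was higher in D2 by 0.64, Fst (follistatin) was lower in B6-13D2 (-1.71), and Vim (vimentin), an intermediate filament gene that fibroblasts also express strongly, was lower in B6-13D2 (-1.49).

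Of 14 visceral endoderm genes, 7 were tested. Ttr and Afp, which encode secreted proteins that define this layer, were not, and had at most 2 and 6 counts in a library. In D2 against B6, 3 were higher and 3 lower, beside 29.8% and 30.3% of all tested genes. In B6-13D2 against B6, where 25.4% of all genes were higher and 32.9% lower, 3 were higher (Lefty1 by 1.04 and Rhox5 by 0.76 among them) and 2 lower (Apob at -2.01 and Lrp2 at -1.07). In D2-13B6 against D2, 6 were higher and none of the 7 tested was lower, led by Lrp2 and Trf (0.84), where 27.6% of all tested genes were higher and 29.7% lower. The median over the 7 genes was 0.53, against 0.00 over all tested genes.

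Of 8 further regulators and signalling genes, 7 were tested. Fgf4, the ligand that favours the layer, was 2.72-fold lower in D2 than in B6 (log2 difference -1.44, SE 0.0372, edgeR adjusted p 1.94e-15) and higher in D2-13B6 than in D2 by 0.72. Its receptor gene Fgfr2 was lower in B6-13D2 than in B6 (-1.18) and in D2-13B6 than in D2 (-0.99). Pdgfra, a receptor gene of primitive endoderm that fibroblasts share, had 5.03 CPM ± 0.211 (SD, n = 3) in B6, 2.58 ± 0.307 in B6-13D2, 6.85 ± 0.177 in D2 and 7.43 ± 0.248 in D2-13B6. Hnf4a, a transcription factor of visceral endoderm, was 4.33-fold higher in D2 than in B6 (2.11, SE 0.241, edgeR adjusted p 6.94e-07), higher in B6-13D2 than in B6 by 0.78 and lower in D2-13B6 than in D2 (-0.81). All 8 epiblast genes were lower in D2 than in B6, where 30.3% of all tested genes were. In B6-13D2 against B6, 6 of 8 were higher and Klf4 (-0.38) lower, beside 25.4% and 32.9% of all genes. In D2-13B6 against D2, 6 of 8 were higher, beside 27.6%. In D2-13B6 against B6, 5 were lower and none of the 8 was higher, beside 34.6% and 24.5%. The part of cell composition in the values above was not tested.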

How the data were processed

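The authors deposited expected counts, that is, estimated read counts per gene and library, from EMASE per the file's own title. The submitters' processing notes name Bowtie 1.0.0, edgeR 3.34.1 and mm10, without their roles; the annotation, filters and strand setting are not given in the sources used here. Symbols and positions came from GENCODE M21 (GRCm38), which named 42462 of 43346 gene IDs, and 0 columns were left unmapped. Counts were rounded and tested with edgeR 4.0.16 in R 4.3.3: filterByExpr with a minimum count of 10, TMM scaling, a quasi-likelihood fit of 4 group means on 12 libraries, and Benjamini-Hochberg adjustment over 17148 genes at 0.05. Each standard error was taken from the F statistic, as the size of the log2 difference over root F. DESeq2 1.42.0 and other settings served as alternatives. The scripts were tested on simulated data. Replicates were compared by chi-square (1.96 to 8.60 for each degree of freedom), so all differed by more than sampling noise. Counting error sets the precision of low genes.

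The members and lists were chosen with earlier results of these data known. All 10 members were described; of each further list, the text draws on the 2 highest and 2 lowest called genes whose average log2 CPM reached 0 in a comparison, and Lamc1, Ttr, Afp, Dcn, and Pdgfra and Lrp2 levels in every group were also given beyond this rule, chosen after their values were seen. The endothelial list and the scaling to the fibroblast list were added after seeing the data.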

Additional observations from a re-analysis of the deposited data

Results flagged for a closer look

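The effect of the chromosome 13 segment was taken on each background, and the difference between backgrounds, which equals both congenic lines minus both parental lines, was tested for each gene with edgeR. Over all tested genes 64.5% were called in this contrast. It was called for 6 of the 9 tested members. On the log2 scale it was -3.03 for Cubn, -2.12 for Lamb1, -1.89 for Dab2 and -1.14 for Gata6, and 2.00 for Sox17 and 0.31 for Lama1. A sign of this sum need not hold in each congenic line: Gata6 differed from D2 by -0.06 in D2-13B6 without passing the test, and Lama1 was lower there than in D2 (-0.29) but higher in B6-13D2 than in B6 (0.61). Sox17 was called in D2-13B6 against D2 (1.53) and not in B6-13D2 against B6 (0.47). Dab2, Lamb1 and Cubn were lower in each congenic line than in its parent. The adjusted p ranged from 1.06e-16 for Lamb1 to 0.000586 for Sox17, and the 6 calls remained 6 in number with each library left out. All 18 fibroblast genes were lower in this contrast, with a median of -2.45, where 33.4% of all tested genes were lower. For Gata4, Sox7 and Amn it was 0.29, 0.32 and 0.17 and did not pass the test. In the deposited table the congenic columns are named with a prefix and the parental ones without, so anything those libraries share and the segment effect cannot be told apart.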

How the results depend on the processing

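Of the values that use TMM scaling, 340 of 348 kept direction and call under the settings that keep all libraries, and 718 did so with 1 library left out, against 38 that did not. The calls of Cubn in D2 against B6, Amn in B6-13D2 against B6, Gata4 and Amn in D2-13B6 against D2, Sox7 in B6-13D2 against D2 and Cubn in D2-13B6 against B6 depended on single libraries. Gata4 in D2-13B6 against B6 was called without B6 replicate 2 (-0.56, edgeR adjusted p 0.0361). With 1 library left out, the number of members called was 4 to 6 in D2 against B6, 5 to 6 in B6-13D2 against B6, 5 to 7 in D2-13B6 against D2, 6 to 7 in B6-13D2 against D2, 3 to 4 in D2-13B6 against B6, 8 in D2-13B6 against B6-13D2 and 6 in the congenic contrast. Relative to the fibroblast list these ranges were 5 to 6 in D2 against B6, 5 to 8 in B6-13D2 against B6, 6 to 8 in D2-13B6 against D2 and 5 to 6 in D2-13B6 against B6. A mean of at least 1 CPM left 5 members called in D2-13B6 against B6-13D2, since fewer genes were tested. Asking for a log2 fold change of at least 1 left 1 in D2 against B6, 2 in D2-13B6 against D2 and 1 in D2-13B6 against B6, and relative to the list 3, 4, 3 and 2 in the 4 comparisons, where 24.8%, 80.6%, 47.1% and 14.0% of all tested genes passed the same rule. No called value reversed. Among values not called, Lama1 in D2-13B6 against B6 became 0.02 with DESeq2, 0.02 with RLE size factors and 0.03 with the compared libraries alone, and Lamb1 relative to the list in D2-13B6 against D2 became -0.05 with its geometric mean. With 1 library left out, uncalled values that reached or crossed 0 ranged from -0.37 to 0.06 (Amn) and -0.15 to 0.11 (Sox17) in B6-13D2 against D2, from -0.09 to 0.02 (Gata6) and -0.35 to 0.41 (Sox7) in D2-13B6 against D2, and from 0.00 to 0.03 (Lamb1) in D2 against B6. The same held for Dab2 in D2-13B6 against B6 (-0.05 to 0.05), Gata4 in D2-13B6 against B6-13D2 (-0.15 to 0.04) and Amn in the congenic contrast (-0.15 to 0.42), and relative to the list for Sox17 in D2 against B6 (-0.38 to 0.01) and Gata4 in D2-13B6 against B6 (-0.26 to 0.12). The cause was not tested. Samples of the same replicate number did not deviate together: over 18 pairs the mean correlation was -0.009 (range -0.148 to 0.086). A replicate block took the calls from 5 to 4 in D2 against B6, where Cubn had an adjusted p of 0.0511 with edgeR, and from 6 to 5 in B6-13D2 against B6, where Amn had 0.0525. Low counts limit Foxa2, Sox7, Sox17 and Amn.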

Other observations

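Other lineages were read from lists in the same libraries. Of 8 definitive endoderm and mesendoderm genes, 7 were tested. In D2-13B6 against B6, 2 were higher (T by 0.49 among them) and 3 lower (Eomes at -1.36 and Gsc at -1.33 among them). Of all tested genes, 24.5% were higher and 34.6% lower in that comparison. D2-13B6, the group with the highest Sox17, had 4.32-fold more Hand1 than B6 (log2 difference 2.11, SE 0.262, edgeR adjusted p 1.90e-06) and 3.67-fold more Cdx2 (1.88, SE 0.188, edgeR adjusted p 1.38e-07), both transcription factor genes of trophoblast. In the same comparison Tfap2c, another factor of that lineage, was lower (-1.79), as was Esx1 (-1.73), so the list of 10 trophoblast genes, 8 of them tested, split into 4 higher and 3 lower, where 24.5% of all tested genes were higher and 34.6% lower. Its summed level was 44.3 CPM ± 1.40 (SD, n = 3) in D2-13B6 and 70.7 ± 3.62 in B6. In D2-13B6 against D2, 4 of the 8 tested were higher, Esx1 (1.49) and Hand1 (1.43) among them, and 2 lower, Tfap2c among them (-1.42). Of all tested genes, 27.6% were higher and 29.7% lower there. D2 itself differed from B6 in this list. Cdx2 was higher (1.55) and 5 genes were lower, Esx1 among them (-3.22), where 29.8% of all tested genes were higher and 30.3% lower.

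Sox7 and Sox17 are also genes of endothelium, and 7 endothelial genes were read after the data had been seen; 5 were tested. In D2-13B6 against D2, Pecam1, which stem cells also express, was higher by 1.36 and Tek by 1.16, and 1 of the 5 was lower, where 27.6% of all tested genes were higher and 29.7% lower. Against B6, Pecam1 was higher by 1.16, Kdr higher by 0.78, Tie1 lower (-3.18) and Tek lower (-1.36). Whether endothelial cells have a part in the Sox17 values was not tested.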
